A study of Homo sapiens with 12 samples.

Results

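The genes described here are 10 members of the MYC, MAX and MXD transcription factor network, MYC, MAX, MXD1, MXD3, MXD4, MXI1, MNT, MLX, MLXIP and MGA, taken by symbol from the mRNA tables. All 10 were found among 34886 gene symbols and all passed the filter on low counts, with 88 counts or more in every library. The cells were H446 (NCI-H446), a line long grown from a human small cell lung cancer. They were given CAPE (caffeic acid phenethyl ester), a compound of propolis, at 40 µM in dimethyl sulfoxide (DMSO) for 8 h, or an equal volume of DMSO alone. There were 3 CAPE and 3 DMSO libraries of mRNA and as many of miRNA, all on an Illumina platform. No source says whether replicates came from separate cultures, and p-values then describe only how far these samples vary, possibly for technical reasons. All samples are of a single line, so nothing here speaks of other tumours.

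The mRNA libraries held 17569997 to 20917508 estimated counts. DMSO 3 stood apart from the other mRNA libraries, with a Pearson correlation across genes of 0.896 to 0.920 to each of them, against 0.974 to 0.993 between the other 5, so each member's fold change is given with and without it. Of 13595 genes tested with all 6 libraries, 1.49% rose and 0.456% fell with CAPE (edgeR adjusted p under 0.05). Of 13919 genes tested without DMSO 3, 20.4% rose and 20.8% fell, the shares against which counts of members in that fit stand. Of 12 listed markers of small cell lung cancer, NEUROD1, POU2F3, INSM1, CHGA and NCAM1 stayed under 1 CPM (counts scaled to the library's size with TMM factors) in every library, while YAP1 measured 165 to 169 CPM in CAPE and 83.5 to 182 CPM in DMSO and the keratins KRT8 and KRT18 were higher still. These neuroendocrine and tuft cell markers of the labelled tumour type were thus at or near 0 in these libraries. Of 8 markers of other cell types CD3E, ALB and SCGB1A1 had no count, and the summed level was 28.4 to 30.3 CPM in CAPE and 27.4 to 53.8 CPM in DMSO, most of it CD68.

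MYC binds DNA only as a dimer with MAX, and the dimer activates genes that carry the E-box CACGTG near their start. The MXD proteins (MXD1, MXD3, MXD4 and MXI1) and MNT compete for MAX and, through the SIN3 and histone deacetylase corepressors, silence the same sites, and MGA joins MAX to a Polycomb complex. MLX is the MAX-like partner of MLXIP (MondoA), a sensor of glucose phosphates, and MLX can also pair with MXD1, MXD4 and MNT. MYC is amplified or highly expressed in part of small cell lung cancers.

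Without DMSO 3, all 5 repressor partners of MAX changed with CAPE, in both directions, and MAX itself did not pass the test. MXI1, MXD1 and MNT were higher in every CAPE library than in any DMSO library, and MXD3 and MXD4 were lower in every CAPE library. With all 6 libraries 1 of the 10 members passed in edgeR, MXI1, which rose, against 1.49% of all genes, and 0 fell, against 0.456%. At an unadjusted p under 0.05, 3 were higher and 2 lower, where 9.54% of all genes tested were higher and 6.52% lower. DESeq2 passed 3 as higher and 1 as lower, where it passed 3.35% and 2.07% of all genes, and limma on log2(TPM + 1) passed 0 members and 0.993% of all genes. Without DMSO 3, 3 rose (MXI1, MXD1 and MNT), 5 fell (MXD3, MGA, MLX, MXD4 and MYC) and 2 did not pass (MAX and MLXIP). Limma's voom with a weight per library, which passed 41.1% of all genes over all 6 libraries, also had 3 members up and 5 down. The median log2 fold change of the 10 was -0.12 with 6 libraries and -0.15 without DMSO 3, against -0.014 and 0.0035 over all genes tested. On the CPM scale the groups did not overlap for 7 of the 10 members, as for 41.9% of all genes tested, and for 8 of 10 without DMSO 3, as for 62.2% of all genes. In bulk RNA fewer cells expressing a gene and less RNA per cell cannot be told apart.

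**Figure D1:**
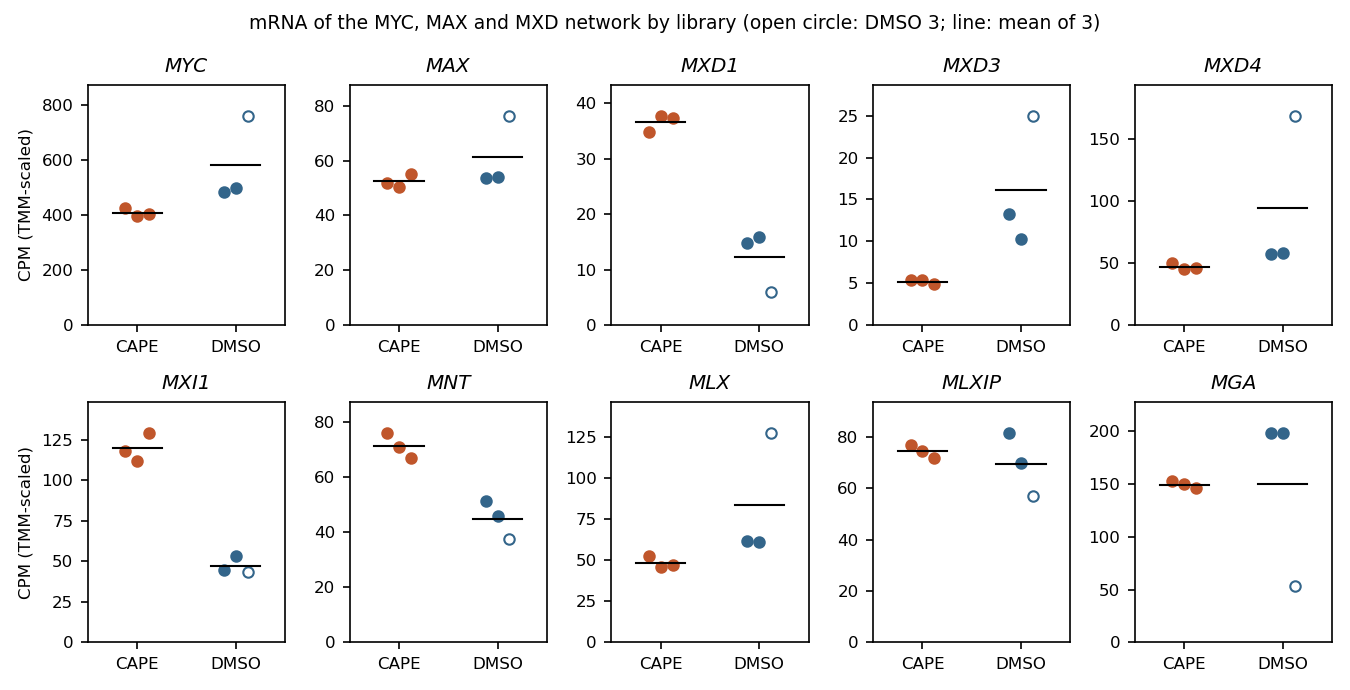
Level of each of the 10 network genes in each mRNA library, in TMM-scaled CPM, with CAPE libraries on the left and DMSO libraries on the right of each panel; each axis starts at 0, lines are means of 3 libraries and the open circle is DMSO 3. MXI1 and MXD1 lie well above their DMSO values in all 3 CAPE libraries and MXD3 below them, while DMSO 3 is far from DMSO 1 and DMSO 2 for MGA, MXD4 and MLX.

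MYC, at chromosome 8, 127735434 to 127742951 (GRCh38), was by far the most abundant member per transcript length. It measured 364, 346 and 342 TPM (relative transcript abundance, with length divided out) in CAPE 1 to 3, against 412, 412 and 291 TPM in DMSO 1 to 3. The CAPE libraries were thus below DMSO 1 and DMSO 2 and above DMSO 3. By TPM it ranked 321, 330 and 341 among all symbols in CAPE 1 to 3 and 289, 294 and 458 in DMSO 1 to 3. On the CPM scale the same gene measured 425, 398 and 404 CPM in CAPE 1 to 3 and 484, 499 and 760 CPM in DMSO 1 to 3. DMSO 3 was therefore the highest library of MYC in CPM and the lowest in TPM. The size of any fall of MYC mRNA thus rested on the scale and on this library. The TMM factor by which CPM is divided was 0.699 in DMSO 3, against 1.067 to 1.088 in the other mRNA libraries. A lower factor gives a higher CPM for every gene of that library, and its part in the MYC level was not tested. Its log2 fold change was -0.51 (SE 0.22, edgeR adjusted p = 0.325) with 6 libraries, -0.07 by limma on log2(TPM + 1) (adjusted p = 0.815), and -0.27 (SE 0.04, edgeR adjusted p = 1.07e-04) without DMSO 3, where TPM gave -0.23 (limma adjusted p = 0.0125). Without DMSO 3 the fall was therefore small on either scale, with CAPE libraries at 0.83 of the DMSO level in CPM.

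MAX, the obligate partner (chromosome 14, 65006101 to 65102695), measured 51.8, 50.2 and 55.2 CPM in CAPE 1 to 3, against 53.5, 54.0 and 76.3 CPM in DMSO 1 to 3. The groups overlapped, and the log2 fold change was -0.23 (SE 0.19, edgeR adjusted p = 0.486) with 6 libraries and -0.04 (SE 0.06, adjusted p = 0.629) without DMSO 3. On log2(TPM + 1) with 6 libraries its sign turned, to 0.16, with DMSO 3 at 42.5 TPM against 71.9 and 78.2 TPM in DMSO 1 and DMSO 2. Per length, MYC exceeded MAX 4.85- to 5.30-fold in the CAPE libraries and 5.27- to 6.86-fold in the DMSO libraries.

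MXI1, an MXD repressor also called MXD2 and known as a target of hypoxia-inducible factors (chromosome 10, 110207605 to 110287365), was the single member that passed in edgeR with all 6 libraries. It measured 118, 112 and 129 CPM in CAPE 1 to 3, against 44.4, 53.5 and 43.7 CPM in DMSO 1 to 3. Here DMSO 3 lay beside the other DMSO libraries, and the groups did not overlap. MXI1 rose 2.54-fold (log2 fold change 1.34, SE 0.16, edgeR adjusted p = 0.0213) with 6 libraries and 2.44-fold (1.29, SE 0.08, adjusted p = 8.95e-09) without DMSO 3. In TPM it measured 72.7, 69.0 and 77.5 in CAPE and 28.9, 33.8 and 13.1 in DMSO, so that DMSO 3 was low on that scale. The pass with 6 libraries was lost whenever any CAPE library, DMSO 1 or DMSO 2 was left out (edgeR adjusted p from 0.0935 to 0.194), when few or no genes passed at all.

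MXD1, the founding MXD repressor, which is known to rise as cells differentiate (chromosome 2, 69915109 to 69942945), measured 34.8, 37.7 and 37.3 CPM in CAPE 1 to 3, against 14.8, 15.9 and 6.02 CPM in DMSO 1 to 3. All CAPE libraries were above all DMSO libraries, with DMSO 3 the lowest. Its log2 fold change was 1.58 (SE 0.37) with 6 libraries, which did not pass (edgeR adjusted p = 0.117), and 1.25 (SE 0.08, adjusted p = 1.62e-08) without DMSO 3, where MXD1 rose 2.38-fold. It passed with all 6 libraries in DESeq2 (adjusted p = 0.00359). Per length it was among the scarcest members, with 10.0 to 12.4 TPM in CAPE and 0.775 to 4.81 TPM in DMSO.

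MXD3, an MXD repressor that unlike its relatives is expressed in dividing cells, chiefly in S phase (chromosome 5, 177305499 to 177312752), went the other way. It measured 5.34, 5.42 and 4.86 CPM in CAPE 1 to 3, against 13.3, 10.3 and 24.97 CPM in DMSO 1 to 3. These are low levels, from 95 to 102 counts in CAPE and 197 to 365 counts in DMSO, but the groups did not overlap on either scale. In TPM, where DMSO 3 lay between DMSO 1 and DMSO 2, MXD3 measured 8.18, 9.30 and 6.30 in CAPE and 24.0, 18.5 and 23.7 in DMSO. With 6 libraries its log2 fold change was -1.63 (edgeR adjusted p = 0.0983, SE 0.36), and MXD3 fell 2.27-fold without DMSO 3 (-1.18, SE 0.14, adjusted p = 8.38e-06). DESeq2 passed it with all 6 libraries (adjusted p = 0.00126).

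MXD4, a repressor usually found in resting cells (chromosome 4, 2247432 to 2262109), measured 50.5, 45.6 and 45.9 CPM in CAPE 1 to 3, against 57.2, 58.2 and 169 CPM in DMSO 1 to 3. DMSO 3 lay farther above DMSO 1 and DMSO 2 than for any other member, 1.55 higher on the log2 CPM scale, yet in TPM its 35.1 lay between 38.1 and 29.7. With 6 libraries the log2 fold change was -1.002 (edgeR adjusted p = 0.335, SE 0.45), and without DMSO 3 MXD4 fell (-0.29, SE 0.06, adjusted p = 0.00218). MXD1 and MXI1 on the one side and MXD3 and MXD4 on the other thus differed in sign within a single protein family, in both fits.

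MNT, the broadly expressed repressor partner of MAX (chromosome 17, 2384073 to 2401060), measured 76.0, 70.9 and 66.9 CPM in CAPE 1 to 3, against 51.3, 46.1 and 37.6 CPM in DMSO 1 to 3. The groups did not overlap. With 6 libraries the log2 fold change of MNT was 0.66 (edgeR adjusted p = 0.143, SE 0.17), and it rose 1.46-fold without DMSO 3 (0.55, SE 0.07, adjusted p = 1.92e-05). It passed with 6 libraries in DESeq2 (adjusted p = 0.0422).

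**Figure D2:**
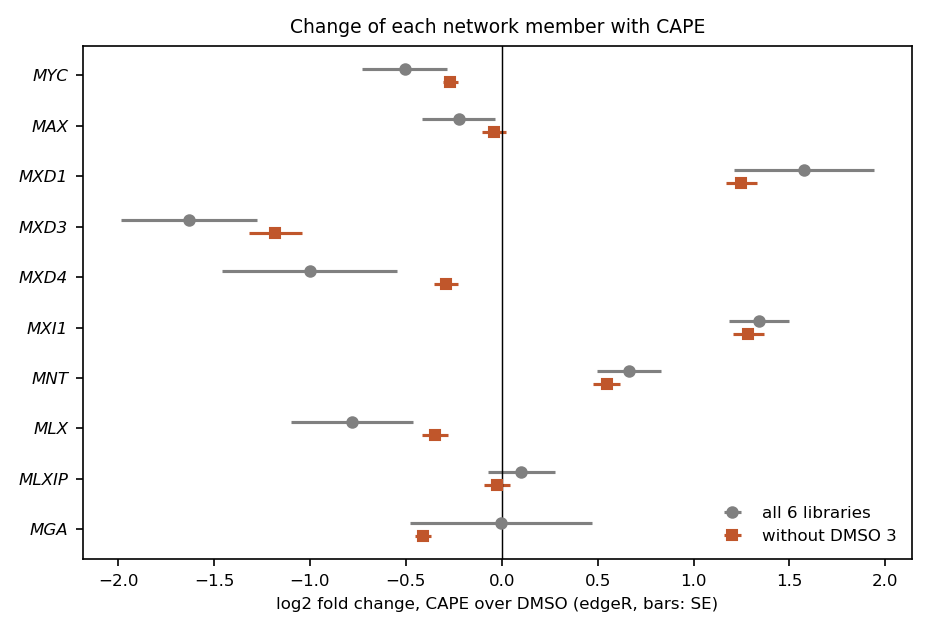
Log2 fold change of each network gene, CAPE over DMSO, from edgeR, with its standard error, in the fit of all 6 mRNA libraries (grey circles) and in the fit without DMSO 3 (orange squares). MXD1, MXI1 and MNT lie to the right and MXD3 farthest to the left in both fits, while MGA moves from about 0 to -0.41 and MXD4 from -1.002 to -0.29 once DMSO 3 is left out.

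The 5 repressor partners of MAX were also summed per library in TPM, as a description. The sum of MXD1, MXD3, MXD4, MXI1 and MNT was 170.3, 170.4 and 168 TPM in CAPE 1 to 3, against 126, 120.5 and 79.6 TPM in DMSO 1 to 3. In CPM the sum was 285, 271 and 284 in CAPE 1 to 3, against 181, 184 and 281 in DMSO 1 to 3, so the groups overlapped on that scale and DMSO 3 was the highest DMSO library instead of the lowest. Divided by the TPM of MYC in the same library, it was 0.468, 0.493 and 0.490 in CAPE 1 to 3, against 0.305, 0.292 and 0.273 in DMSO 1 to 3. This ratio was higher in every CAPE library, and DMSO 3 lay close to the other DMSO libraries. In CPM the ratio was 0.670, 0.681 and 0.703 in CAPE 1 to 3, against 0.374, 0.369 and 0.370 in DMSO 1 to 3. Both scales therefore placed all 3 DMSO libraries together, although DMSO 3 was the lowest of them in MYC TPM and the highest in MYC CPM.

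The makeup of the repressor mRNA differed as well. MXI1 supplied 42.7%, 40.5% and 46.2% of the summed TPM in CAPE 1 to 3, against 23.0%, 28.1% and 16.5% in DMSO 1 to 3. MXD3 supplied 4.80%, 5.46% and 3.76% in CAPE, against 19.1%, 15.3% and 29.7% in DMSO, and MXD4 13.98% to 15.7% in CAPE, against 24.7% to 44.0% in DMSO. MXI1 was 8.89, 7.42 and 12.3 times as abundant per length as MXD3 in CAPE 1 to 3, against 1.20, 1.83 and 0.555 times in DMSO 1 to 3. No test was made of these sums and shares, since their members were chosen with the results known.

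**Figure D3:**
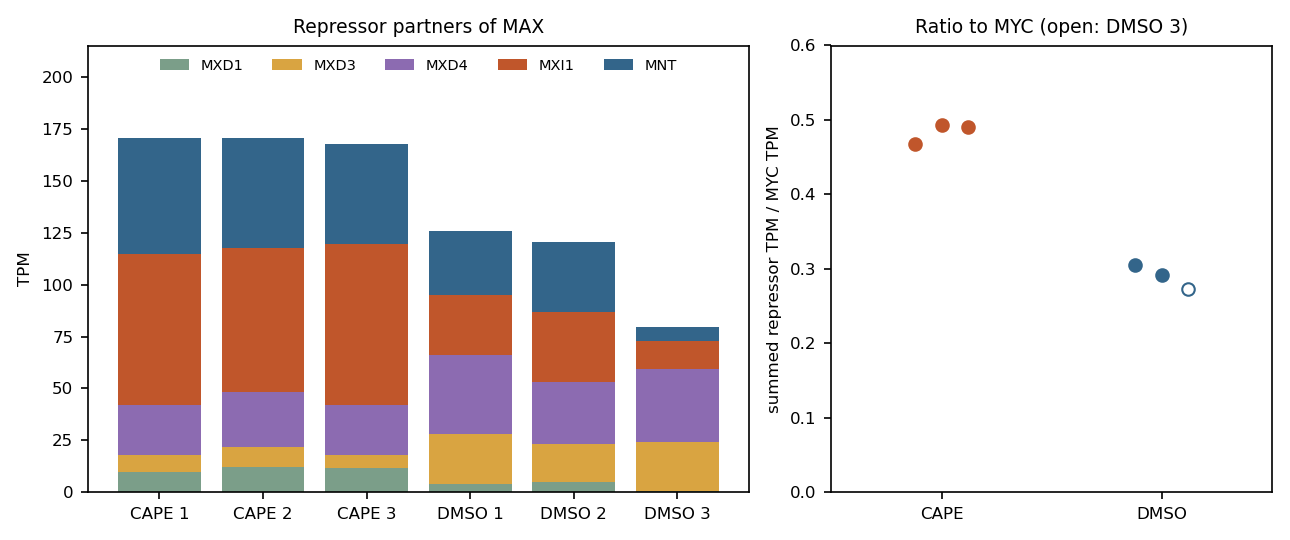
Left, stacked TPM of MXD1, MXD3, MXD4, MXI1 and MNT in each mRNA library, CAPE libraries first. Right, the same sum divided by MYC TPM in each library, with DMSO 3 as the open circle: 0.468 to 0.493 in CAPE and 0.273 to 0.305 in DMSO, with no overlap.

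MGA, the largest protein of the network and a scaffold of the Polycomb complex PRC1.6 (chromosome 15, 41621224 to 41769940), measured 152, 149 and 146 CPM in CAPE 1 to 3, against 198, 198 and 53.8 CPM in DMSO 1 to 3. The CAPE libraries lay below DMSO 1 and DMSO 2 and above DMSO 3. With 6 libraries its log2 fold change was -0.0060 (SE 0.47, edgeR adjusted p = 0.994), and without DMSO 3 it fell, with a log2 fold change of -0.41 (SE 0.04, adjusted p = 2.69e-06). On log2(TPM + 1) with 6 libraries the sign was positive (0.73), with DMSO 3 at 3.19 TPM against at least 30.8 TPM in DMSO 1 and DMSO 2. Without DMSO 3, TPM gave -0.25, which did not pass (limma adjusted p = 0.0797). MGA thus passed in fits of the counts that left out DMSO 3 or, in limma's voom, weighted it, and did not pass on TPM.

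MLX (chromosome 17, 42567100 to 42573203) measured 52.9, 45.8 and 47.5 CPM in CAPE 1 to 3, against 62.1, 61.5 and 128 CPM in DMSO 1 to 3. The log2 fold change was -0.78 (SE 0.32, edgeR adjusted p = 0.310) with 6 libraries and -0.35 (SE 0.07, adjusted p = 8.29e-04) without DMSO 3. Its partner MLXIP (chromosome 12, 122078756 to 122147344) measured 76.8, 74.6 and 71.7 CPM in CAPE 1 to 3, against 81.4, 69.6 and 57.0 CPM in DMSO 1 to 3, with overlap. The log2 fold change of MLXIP was 0.10 (SE 0.17, edgeR adjusted p = 0.724) with 6 libraries and -0.02 (SE 0.07, adjusted p = 0.790) without DMSO 3. In TPM, MLXIP was slightly higher in CAPE (23.0, 22.5 and 20.6) than in DMSO (19.5, 19.0 and 6.54). With 6 libraries its sign was positive on both scales, and without DMSO 3 it was negative in CPM and positive on log2(TPM + 1) (0.19, limma adjusted p = 0.205).

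The order of the members by level per length differed between the groups. In CAPE it ran from MYC to MXI1 and MAX, which overlapped (69.0 to 77.5 and 68.6 to 70.5 TPM), then MNT (48.4 to 55.6 TPM), MLX (38.1 to 45.9 TPM), MGA and MXD4, which overlapped (24.7 to 27.9 and 23.8 to 26.8 TPM), MLXIP (20.6 to 23.0 TPM), MXD1 and MXD3. In DMSO 1 and DMSO 2 the order ran from MYC to MAX (71.9 and 78.2 TPM), MLX (53.8 and 52.8 TPM), then MXD4, MXI1, MNT and MGA, which overlapped between 28.9 and 38.1 TPM, then MXD3 and MLXIP, and last MXD1 (4.04 and 4.81 TPM). MXI1 was therefore level with MXD4 in DMSO 1 and DMSO 2 and about level with MAX in CAPE. On the TPM scale the groups did not overlap for 6 of 10 members, as for 33.9% of all genes tested, and for all 10 without DMSO 3, as for 53.1% of all genes.

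The deviation of DMSO 3 differed between members, broadly along with their transcript length. Relative length was taken as counts per TPM over the library's median, averaged over DMSO 1 and DMSO 2. MGA, at 4.75 times the median, lay 1.88 below the mean of DMSO 1 and DMSO 2 on the log2 CPM scale in DMSO 3, and MXD1, at 2.63 times, 1.33 below (deviations of -1.88 and -1.33). MXD3, at 0.419 times the median, lay 1.08 above, and MLX, at 0.874 times, 1.04 above. MXD4 broke this order, at 1.30 times the median and 1.55 above. The deviations of the other 5 were 0.63 for MYC, 0.50 for MAX, -0.16 for MXI1, -0.37 for MNT and -0.40 for MLXIP, at 0.899, 0.541, 1.18, 1.14 and 2.96 times the median length. MLXIP, longer than MXD1 but less far below, and MAX, shorter than MLX but less far above, broke the order too. In all, 5 members were higher and 5 lower in DMSO 3 in CPM. The TMM factor of 0.699 raises the CPM of every gene in that library, and its part in this split was not tested. In TPM DMSO 3 was below both other DMSO libraries for 8 members and between them for MXD3 and MXD4. Over all genes tested the shortest decile deviated by a median of 0.94 and the longest by -1.03. The part of length or of RNA quality in these deviations was not tested.

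**Figure D4:**
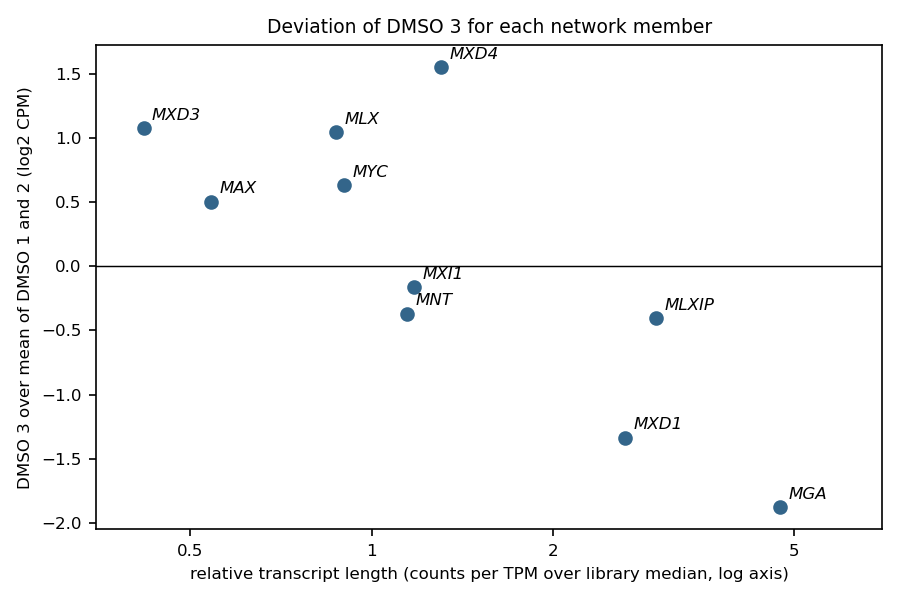
Deviation of DMSO 3 from the mean of DMSO 1 and DMSO 2 in log2 CPM (vertical) against relative transcript length on a log axis (horizontal), 1 point per network gene. Points run from MXD3 at 1.08 and MXD4 at 1.55 down to MXD1 at -1.33 and MGA at -1.88.

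Promoters were inspected for the network's own binding site. RefSeq windows (GRCh38.p14) of 250 bases before to 50 bases after the annotated start were matched for 9 of the 10 members. MYC had no matched window, so its promoter was not searched. The E-box CACGTG, which reads the same on both strands, occurred in 3 of these 9 (MXD4, MNT and MLX), and in 7.43% of 27305 gene promoters of the same length. It lay 238, 193 and 50 bases upstream of the start in MXD4, MNT and MLX. Of these, MNT rose and MXD4 and MLX fell without DMSO 3, so members with the E-box moved in both directions. The GC box GGGCGG, searched on both strands and in these members clear of the E-box, occurred in 7 of 9, against 44.6% of all promoters. The windows of the E-box members and of MXI1, the clearest riser, are shown with the E-box (MNT, MLX, MXD4) or the GC box (MXI1) in capitals. These matches are descriptions of the letters and not of binding.
MXI1 (chr10:110207355-110207654, + strand): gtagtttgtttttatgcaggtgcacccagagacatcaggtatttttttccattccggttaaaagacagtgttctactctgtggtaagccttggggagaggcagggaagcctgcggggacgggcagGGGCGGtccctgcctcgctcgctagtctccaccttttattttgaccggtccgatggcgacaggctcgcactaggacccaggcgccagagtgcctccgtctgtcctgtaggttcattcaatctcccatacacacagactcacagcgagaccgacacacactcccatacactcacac
MNT (chr17:2401011-2401310, - strand): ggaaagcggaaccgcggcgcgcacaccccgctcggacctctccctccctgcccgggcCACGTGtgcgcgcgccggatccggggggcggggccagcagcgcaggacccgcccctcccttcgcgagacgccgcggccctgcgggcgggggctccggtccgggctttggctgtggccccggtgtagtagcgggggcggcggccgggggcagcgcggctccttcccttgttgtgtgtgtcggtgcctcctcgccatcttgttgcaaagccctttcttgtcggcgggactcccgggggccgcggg
MLX (chr17:42566850-42567149, + strand): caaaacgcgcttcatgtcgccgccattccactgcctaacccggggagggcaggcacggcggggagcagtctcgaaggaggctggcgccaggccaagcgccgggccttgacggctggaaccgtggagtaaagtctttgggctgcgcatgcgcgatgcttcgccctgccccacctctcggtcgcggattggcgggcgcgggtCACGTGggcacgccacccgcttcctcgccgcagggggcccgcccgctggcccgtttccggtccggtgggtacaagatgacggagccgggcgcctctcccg
MXD4 (chr4:2262060-2262359, - strand): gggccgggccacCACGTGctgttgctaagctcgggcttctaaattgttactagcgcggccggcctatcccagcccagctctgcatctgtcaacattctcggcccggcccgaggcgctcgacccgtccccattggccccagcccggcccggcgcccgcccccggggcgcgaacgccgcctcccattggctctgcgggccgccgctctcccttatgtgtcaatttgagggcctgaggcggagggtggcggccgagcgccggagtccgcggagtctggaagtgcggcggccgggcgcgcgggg

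Of 3 further genes of the family, MYCN was not detected and MYCL was very low. MYCL, the L-MYC paralogue amplified in some small cell lung cancers, measured 1.22, 1.33 and 1.02 CPM in CAPE 1 to 3, against 0.158, 0.209 and 0.342 CPM in DMSO 1 to 3, without overlap. At 20 to 25 counts in CAPE and 3 to 5 in DMSO it remained far below MYC. It passed the filter on low counts only through its CAPE libraries, so no test of it is given. MYCN, the neuronal paralogue, had no count in any library. MLXIPL (ChREBP), the second partner of MLX, measured 18.6, 19.1 and 21.2 CPM in CAPE and 29.6, 27.9 and 14.2 CPM in DMSO. Without DMSO 3 it fell (-0.55, edgeR adjusted p = 1.04e-04), while with 6 libraries the log2 fold change was -0.28 (adjusted p = 0.566).

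Genes that work with the network were read from lists. The 20 genes listed as coactivators of MYC include partners of other kinds, such as ZBTB17. Of these 20, 0 passed with 6 libraries in edgeR or DESeq2 (median log2 fold change -0.41). At an unadjusted p under 0.05, 0 were higher and 3 lower, against 9.54% and 6.52% of all genes. Without DMSO 3, 2 rose and 12 fell (median -0.19), against 20.4% and 20.8% of all genes. Among the falls ACTL6A and KAT5, subunits of the TIP60 acetyltransferase complex (log2 fold changes -0.38 and -0.52), and WDR5 (-0.31), a histone methyltransferase subunit that binds MYC, had the smallest p. KAT5 had a log2 fold change of -1.18 with 6 libraries, where DMSO 3 was at 119 CPM and DMSO 1 and DMSO 2 at 43.2 and 43.0 CPM. ZBTB17 (MIZ1), which tethers MYC to repressed promoters, was among the rises (0.36). ZBTB17 had a log2 fold change of -0.03 with 6 libraries, so its sign turned with DMSO 3, whose coactivator levels lay a median of 0.80 above those of DMSO 1 and DMSO 2. Among 16 SIN3, HDAC and NCOR corepressor genes of the MXD proteins 1 rose with 6 libraries, ING2, where 1.49% of all genes rose. ING2 measured 24.5, 26.4 and 25.7 CPM in CAPE and 14.2, 14.4 and 14.2 CPM in DMSO (log2 fold change 0.84, edgeR adjusted p = 0.0410). In CPM all 3 DMSO libraries were alike for ING2, but in TPM DMSO 3 was well below DMSO 1 and DMSO 2. The ING2 levels of the groups did not overlap on either scale. Without DMSO 3, 4 of these 16 rose (ING2 and ING1 among them) and 3 fell (HDAC2, BRMS1 and SUDS3), with a median of -0.07. These counts are about the shares over all genes in that fit, where 20.4% rose and 20.8% fell. BRMS1 differed between the fits, with a log2 fold change of -0.23 here and -1.26 with 6 libraries (edgeR adjusted p = 0.341). The sign of SUDS3 turned with DMSO 3 (0.06 with 6 libraries). SIN3A itself, the MXD scaffold, measured 114, 117 and 118 CPM in CAPE and 119, 127 and 93.3 CPM in DMSO and did not pass in either fit (edgeR adjusted p = 0.880, and 0.204 without DMSO 3).

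Among 12 partners of MGA in PRC1.6, 0 passed with 6 libraries in edgeR (median -0.07), 1 was higher and 1 lower at an unadjusted p under 0.05, about the shares over all genes (9.54% and 6.52%), and DESeq2 passed 1 as lower. Without DMSO 3, 2 rose and 4 fell, against 20.4% and 20.8% of all genes. The histone methyltransferases EHMT1 and EHMT2 and the heterochromatin protein CBX3 had the smallest p among the falls (log2 fold changes -0.41, -0.29 and -0.27, and -0.45, -0.64 and -0.12 with 6 libraries), and the RING1-binding RYBP and the ubiquitin ligase RNF2 rose (0.41 and 0.26, and 0.56 and 0.43 with 6 libraries). Of 23 genes that control MYC protein turnover, 2 fell with 6 libraries, where 0.456% of all genes fell. These 2 were the mitotic kinases AURKA and PLK1, both known to shield MYC family proteins from degradation. AURKA measured 33.7, 36.6 and 32.2 CPM in CAPE 1 to 3, against 107, 100.2 and 175 CPM in DMSO 1 to 3 (log2 fold change -1.90, edgeR adjusted p = 0.0265, and -1.61 without DMSO 3). PLK1 measured 39.7, 39.0 and 34.7 CPM in CAPE and 224, 231 and 602 CPM in DMSO (-3.22, adjusted p = 0.0309, a fall of 9.31-fold). Without DMSO 3 PLK1 fell 6.03-fold (-2.59), and both are genes of G2 and mitosis as well. Without DMSO 3, 4 of the 23 rose and 11 fell, against 20.4% and 20.8% of all genes. By p the first rises were the deubiquitinases USP37 and USP28 and the kinase GSK3B, which marks MYC for degradation (0.58, 0.23 and 0.39, and 0.94, 0.42 and 0.62 with 6 libraries), and SET came after PLK1 and AURKA among the falls (-0.31, and -0.36 with 6 libraries). FBXW7, the ligase that recognises GSK3-phosphorylated MYC, measured 7.66, 8.14 and 7.57 CPM in CAPE and 6.85, 5.06 and 0.205 CPM in DMSO and did not pass in either fit (edgeR adjusted p = 0.527, and 0.05003 without DMSO 3).

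Of 35 genes that MYC is known to activate, 34 were tested and 0 passed with 6 libraries in edgeR (median log2 fold change -0.47). At an unadjusted p under 0.05, 1 was higher and 7 lower, against 9.54% and 6.52% of all genes, and DESeq2 passed 2 as lower, against 2.07% of all genes. The median deviation of DMSO 3 over these genes was 0.76 (log2 CPM), and its part in that fit was not tested. Without DMSO 3, 22 of the 34 fell and 4 rose, against 20.8% and 20.4% of all genes, with a median of -0.22. ODC1, the first enzyme of polyamine synthesis, EIF4G1, a translation initiation scaffold, and the repair nuclease APEX1 had the smallest p among the falls (log2 fold changes -0.38, -0.47 and -0.37, and -0.94, -0.58 and -0.85 with 6 libraries). SHMT2, a mitochondrial enzyme of serine metabolism, and the cell cycle factor E2F2 were among the rises (0.45 and 0.36), and SHMT2 turned sign with DMSO 3 (-0.24 with 6 libraries).

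Of 20 genes that MYC is known to repress, 17 were tested and with 6 libraries 3 rose (NDRG1, DDIT3 and GADD45A) and 1 fell (GAS1). Of all genes 1.49% rose and 0.456% fell in that fit. NDRG1, a differentiation and hypoxia gene, measured 1059, 1013 and 1058 CPM in CAPE 1 to 3, against 165, 182 and 294 CPM in DMSO 1 to 3 (log2 fold change 2.29, edgeR adjusted p = 0.0213, and 2.58 without DMSO 3). GAS1, a growth arrest gene, measured 65.4, 69.7 and 57.2 CPM in CAPE and 139, 147 and 161 CPM in DMSO (-1.22, edgeR adjusted p = 0.0253, and -1.16 without DMSO 3). DDIT3, a transcription factor of the unfolded protein response, measured 20.3, 23.8 and 22.5 CPM in CAPE and 4.53, 4.33 and 5.68 CPM in DMSO (2.20, edgeR adjusted p = 0.0106, and 2.32 without DMSO 3). GADD45A, a DNA damage gene, measured 44.2, 47.2 and 50.1 CPM in CAPE and 22.3, 22.3 and 25.4 CPM in DMSO (1.01, edgeR adjusted p = 0.0313, and 1.07 without DMSO 3). DDIT3, GADD45A and NDRG1 are also genes of stress responses. Without DMSO 3, 6 of the 17 rose and 7 fell, against 20.4% and 20.8% of all genes, with a median of 0.02. The list as a whole leaned neither way. The CDK inhibitor CDKN1A was among the rises (1.11) and its relative CDKN1B among the falls (-0.84), with THBS1 (-0.96). With 6 libraries none of these 3 passed, at 0.57 for CDKN1A (edgeR adjusted p = 0.394), -0.76 for CDKN1B (0.0692) and -0.71 for THBS1 (0.291), and the groups overlapped for CDKN1A and THBS1.

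Of 8 targets of MondoA and MLX 7 were tested. With 6 libraries, where 1.49% of all genes rose, HK2 rose, the hexokinase that makes glucose 6-phosphate. It measured 335, 325 and 329 CPM in CAPE and 152, 159.6 and 112 CPM in DMSO (log2 fold change 1.22, edgeR adjusted p = 0.0355). Without DMSO 3, 4 rose, HK2 (1.08), KLF10 (0.48) and PFKFB3 (0.47) first, and 2 fell, FASN (-0.57) and TXNIP (-0.25). Of all genes 20.4% rose and 20.8% fell in that fit. KLF10, PFKFB3 and FASN had log2 fold changes of 0.46, 0.46 and -0.65 with 6 libraries and did not pass. TXNIP, the most direct known target of MondoA, measured 57.3, 64.9 and 59.5 CPM in CAPE and 67.8, 75.3 and 73.1 CPM in DMSO, and did not pass with 6 libraries (-0.25, edgeR adjusted p = 0.355). HK2 and PFKFB3 are also hypoxia targets.

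**Figure D5:**
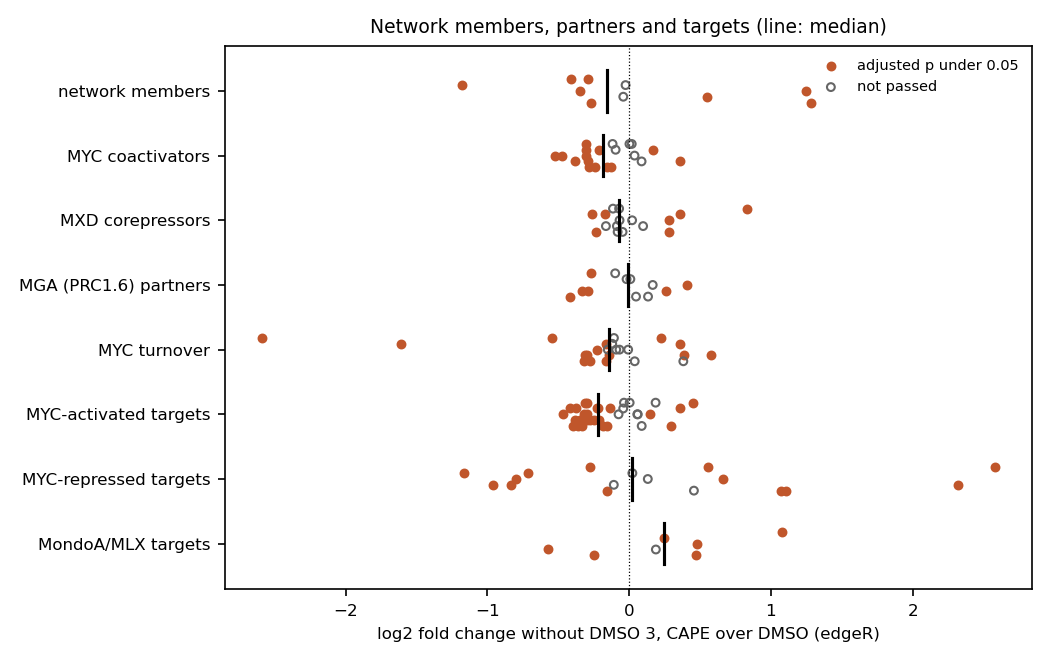
Log2 fold change without DMSO 3 (edgeR, CAPE over DMSO) of each tested gene of the network and of the partner and target lists, filled where the adjusted p was under 0.05, with the median as a line. The 10 network members spread from -1.18 to 1.29, the MYC-activated targets centre at -0.22 and the MYC-repressed targets run from -1.16 to 2.58.

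MicroRNAs known to target MYC mRNA or to be activated by MYC were read from the miRNA libraries, where 11.8% of 527 miRNAs passed (edgeR adjusted p under 0.05). These libraries held 4637576 to 6134006 counts in CAPE and 7387387 to 8933025 counts in DMSO, and the part of this depth gap in the results was not tested. The let-7 family, the best known miRNA repressor of MYC, shares the seed GAGGUAG at bases 2 to 8. Sequences are RefSeq's (GRCh38.p14), with the seed in capitals, and the miR-17-92 cluster lies on chromosome 13.
let-7i-5p: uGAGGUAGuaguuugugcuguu
let-7f-5p: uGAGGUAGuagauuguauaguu
miR-19a-3p: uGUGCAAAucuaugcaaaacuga
miR-19b-3p: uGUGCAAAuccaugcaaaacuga
miR-92a-3p: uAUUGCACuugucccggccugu
miR-20a-5p: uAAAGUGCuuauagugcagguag

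Of 11 tested miRNAs that target MYC 0 passed in edgeR or DESeq2 and 0 had an unadjusted p under 0.05, where 8.89% passed in DESeq2 and 23.1% had such a p over all miRNAs. They had log2 fold changes of -0.14 to 0.22 (edgeR adjusted p from 0.306 to 0.981). The 9 miRNAs with the let-7 seed summed to 129492, 119870 and 109167 CPM in CAPE 1 to 3, against 123721, 129058 and 96949 CPM in DMSO 1 to 3, with overlap. The most abundant, let-7i-5p, measured 48326, 44958 and 41361 CPM in CAPE and 51321, 53899 and 43134 CPM in DMSO (-0.14, edgeR adjusted p = 0.576), and let-7f-5p measured 34131, 30560.0 and 26567 CPM in CAPE and 29407, 29902 and 21945 CPM in DMSO. Without DMSO 3, 60 of 536 miRNAs tested rose and 68 fell, and let-7i-5p was among the falls (-0.30, edgeR adjusted p = 0.0475). Whether the miRNA library DMSO 3 stands apart as the mRNA library does was not tested. Of 6 miRNAs of the MYC-activated miR-17-92 cluster 1 fell. miR-19a-3p measured 260.0, 250.4 and 268 CPM in CAPE 1 to 3, against 399, 386 and 435 CPM in DMSO 1 to 3, without overlap (log2 fold change -0.65, SE 0.12, edgeR adjusted p = 0.00454). miR-19b-3p, which carries the same seed GUGCAAA, measured 472, 467 and 535 CPM in CAPE and 551, 554 and 689 CPM in DMSO, and did not pass (-0.28, SE 0.13, adjusted p = 0.215). The other members of the cluster had log2 fold changes of -0.29 to -0.02. miR-92a-3p, the most abundant of them, measured 12625, 13077 and 11249 CPM in CAPE and 14876, 13927 and 10419 CPM in DMSO (-0.09, adjusted p = 0.764). Without DMSO 3 miR-92a-3p fell as well (-0.30, edgeR adjusted p = 0.0361). miR-19b-3p and miR-92a-3p have 2 loci each in RefSeq, so their counts cannot be given to this cluster alone. The difference between miR-19a-3p and the rest of the cluster was not tested.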

How the data were processed

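The authors deposited estimated counts and TPM per gene symbol for mRNA and raw counts per mature miRNA. Per the submitters' processing notes bcl2fastq, kallisto 0.46.1 and GRCh38 were used, and the deposited TPM come from kallisto's estimates. The deposited mRNA counts are rounded estimated counts, and 32 to 65 genes per library had TPM above 0 beside a count of 0. The step from transcripts to genes and the tools for miRNA are not stated by these notes. The 2888 deposited miRNA entries carry 2656 names, and each name was read from its entry with most counts.

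Counts were filtered with filterByExpr, scaled by TMM and tested with edgeR 4.0.16 (R 4.3.3) by the quasi-likelihood F test, CAPE against DMSO, with Benjamini-Hochberg adjustment over all features (adjusted p under 0.05). The SE is the log2 fold change over the square root of F. Limma 3.58.1 and DESeq2 1.42.0 gave alternatives. The tests were checked on simulated data. Members and lists were chosen with earlier results of these data known. All members were named, and from each list those passing with 6 libraries and the 3 with the smallest p in each direction without DMSO 3; a gene or miRNA named beyond this was chosen after its values were seen. Some genes that this rule names are not reported here. The symbol CIP2A was matched through an older symbol.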

Additional observations from a re-analysis of the deposited data

How the results depend on the processing

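With all 6 mRNA libraries the count of genes called was 265 in the edgeR fit, 856 in DESeq2, 5592 (41.1%) with limma's voom and a weight per library, 135 on log2(TPM + 1) and 88 on log2(TPM + 0.1). The matching counts of network members were 1, 4, 8, 0 and 0. Leaving out 1 library at a time gave 0 to 5731 genes and 0 to 8 members, the highest without DMSO 3 and 0 members without any other library (genes: 0 without CAPE 1, 6 without CAPE 2, 0 without CAPE 3, 9 without DMSO 1 and 17 without DMSO 2). The replicate block, which uses the number in the titles, gave 0 genes and 0 members, and the MXI1 log2 fold change was 1.35 there (edgeR adjusted p = 0.196). The labels do not say whether the numbers pair the libraries. The correlations of same-numbered deviations were -0.194, 0.140 and -0.0085 for mRNA and 0.107, 0.0115 and 0.117 for miRNA. Not every library correlated best with its own number. These deviations were taken from group means that include DMSO 3, so the correlations cannot decide whether the libraries are paired. For miRNA the block left 63 calls, against 62 without it. Among alternatives added after seeing the data, without DMSO 3 DESeq2 called 4505 genes and 8 members, RLE factors 5733 and 8, no filter 5382 and 8, and log2(TPM + 1) 3046 and 7. MYC kept its negative sign throughout and passed under 6 alternatives, with log2 fold changes of -0.27 by voom and library weights, -0.27 without DMSO 3 and, also without it, -0.28 in DESeq2, -0.27 with RLE factors, -0.27 without the filter and -0.23 on log2(TPM + 1). It ranged from -0.63 to -0.27 when 1 library was left out. The miRNA calls ranged from 17 to 128 when 1 library was left out, and the listed miRNAs called from 1 to 3, let-7i-5p and miR-92a-3p passing without DMSO 3 (-0.30 for each). Leaving out 1 library moved SHMT2 between -0.51 and 0.45, let-7f-5p between -0.03 and 0.25, MGA between -0.41 and 0.24 and MLXIP between -0.02 and 0.23. Some log2 fold changes had the opposite sign to that of the edgeR fit of 6 libraries. On log2(TPM + 1) this was so for CBX3 (0.26), EHMT1 (0.16), HDAC2 (0.20), MLXIPL (0.10), SET (0.11), SHMT2 (0.40), THBS1 (0.46), TXNIP (0.19), ZBTB17 (0.45), MAX (0.16) and MGA (0.73). On log2(TPM + 0.1) this was so for CBX3 (0.26), EHMT1 (0.16), HDAC2 (0.20), MLXIPL (0.13), SET (0.11), SHMT2 (0.40), THBS1 (0.48), TXNIP (0.20), ZBTB17 (0.47), MAX (0.16) and MGA (0.83). With library weights this was so for SHMT2 (0.45), SUDS3 (-0.16), ZBTB17 (0.36) and MLXIP (-0.018). Without DMSO 3 this was so for SHMT2 (0.45), SUDS3 (-0.17), ZBTB17 (0.36), let-7f-5p (-0.032) and MLXIP (-0.025). In DESeq2 without DMSO 3 this was so for SHMT2 (0.44), SUDS3 (-0.18), ZBTB17 (0.35) and MLXIP (-0.032). With RLE factors without DMSO 3 this was so for SHMT2 (0.45), SUDS3 (-0.17), ZBTB17 (0.36) and MLXIP (-0.024). With no filter and without DMSO 3 this was so for SHMT2 (0.44), SUDS3 (-0.18), ZBTB17 (0.35) and MLXIP (-0.032). On log2(TPM + 1) without DMSO 3 this was so for SHMT2 (0.44) and ZBTB17 (0.27). With the replicate block this was so for ZBTB17 (0.046) and MGA (0.20). Without CAPE 3 this was so for MGA (0.0084). Without DMSO 1 this was so for miR-20a-5p (0.037) and MGA (0.24). Without DMSO 2 this was so for MGA (0.24). The cause of these turns of sign was not tested.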
